A study of Homo sapiens with 2 samples.

Results

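The 16 single guide RNAs (sgRNAs) described here were directed at 3 genes: 4 at PGAM1, 6 at CTNNB1 and 6 at ATF4. They were picked out by their names among the 36 sgRNAs captured in the series, with earlier results of these data known. Cells were assigned by their captured sgRNA molecules, counted as unique molecular identifiers (UMIs): the leading sgRNA needed 5 UMIs or more and a share of 80% or more of all sgRNA UMIs in that cell. This placed 2744 of the 5556 assigned cells (49.4%) with 1 of the 16 sgRNAs, and 700 cells with 1 of 4 non-targeting control sgRNAs, which have no target in the genome and serve as the reference throughout.

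PC9, an established line from a lung adenocarcinoma that depends on mutant EGFR, was infected as 1 pool, and 1 gene expression library and 1 sgRNA capture library were read from the same droplets. Cells of every group, controls included, received lentivirus by centrifugation with polybrene at 8 ug/ml for an infection rate near 40%, followed by puromycin at 1 ug/ml, and the labels give both day 8 and an earlier harvest on day 7. The labels describe knockout in some places and dCas9, a Cas9 that does not cut, and knockdown in others, so the kind of perturbation is not fixed by them. They also describe vectors with several sgRNAs in tandem, and they name CTNNB, ATF, MYC and JUN as targets, so that PGAM1 is known here only from the names of captured sgRNAs. The sgRNA is the unit of every test below. All sgRNAs share 1 culture, so p-values cover only how sgRNAs of a group differ, and part of that can be technical.

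PGAM1 is the phosphoglycerate mutase that moves the phosphate group of 3-phosphoglycerate late in glycolysis. CTNNB1 encodes beta-catenin, which joins cadherins to the cytoskeleton at cell contacts and also carries Wnt signals: a destruction complex of APC, AXIN and GSK3 marks it for degradation, and when that complex is held off, beta-catenin enters the nucleus and works with TCF factors. ATF4 is a transcription factor at the centre of the integrated stress response. Its protein is made more from the same mRNA when the initiation factor eIF2 is phosphorylated, and it drives genes of amino acid synthesis and import, tRNA charging and stress adaptation.

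The targeted genes lie on GRCh38.p14 at chromosome 10, 97426191 to 97433444 (PGAM1, ENSG00000171314), chromosome 3, 41199505 to 41240443 (CTNNB1, ENSG00000168036) and chromosome 22, 39520559 to 39522686 (ATF4, ENSG00000128272). The sgRNA sequences and their binding positions were not analysed here. Because the labels name a CRISPRi library, a kind designed around start sites, as the source of the sgRNAs, the 250 bases before the start site are shown for CTNNB1 (chr3:41199255-41199504, plus strand) and ATF4 (chr22:39520309-39520558, plus strand), from RefSeq, 5' to 3'. Capitals mark NGG, the letters that Cas9 of Streptococcus pyogenes needs beside its target.
CTNNB1: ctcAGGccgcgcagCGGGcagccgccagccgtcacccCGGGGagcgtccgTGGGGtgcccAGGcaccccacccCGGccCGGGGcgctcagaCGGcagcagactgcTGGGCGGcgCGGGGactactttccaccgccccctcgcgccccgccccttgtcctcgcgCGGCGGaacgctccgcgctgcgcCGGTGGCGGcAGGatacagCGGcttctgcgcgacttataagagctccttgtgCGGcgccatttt
ATF4: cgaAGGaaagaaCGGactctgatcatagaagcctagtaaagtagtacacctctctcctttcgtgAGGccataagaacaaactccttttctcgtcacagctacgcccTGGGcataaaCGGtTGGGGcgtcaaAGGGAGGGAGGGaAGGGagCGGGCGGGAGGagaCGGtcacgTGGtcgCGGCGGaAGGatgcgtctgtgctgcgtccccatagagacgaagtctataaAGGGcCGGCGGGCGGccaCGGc
The CTNNB1 stretch holds 29 NGG on this strand and 35 on the other, and the ATF4 stretch 34 and 12, against a median of 48 on both strands together over the 35116 promoter windows of the table. The PGAM1 start site in that table lies 1627 bases inside the gene, so its stretch is not shown.

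The sgRNAs differed widely in how many cells carried them. The PGAM1 sgRNAs 1 to 4 had 37, 54, 107 and 135 assigned cells. The CTNNB1 sgRNAs 1 to 6 had 200, 352, 262, 214, 492 and 32, and the ATF4 sgRNAs 1 to 6 had 97, 49, 113, 256, 133 and 211. The control sgRNAs had 300, 164, 159 and 77. Thus CTNNB1 sgRNA 5 had 15.4 times the cells of CTNNB1 sgRNA 6, and the PGAM1 and ATF4 sets spanned 3.65 and 5.22 times. The starting abundance of the sgRNAs was not analysed here, and nothing about growth is read from these numbers.

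Capture itself also varied within a target. The median number of UMIs of the assigned sgRNA per cell was 11, 13, 13 and 11 for PGAM1 sgRNAs 1 to 4. It was 8, 14, 24, 10, 25 and 7.5 for the CTNNB1 sgRNAs and 13, 7, 15, 13, 12 and 11 for the ATF4 sgRNAs, beside 25, 8.5, 12 and 16 for the controls. CTNNB1 sgRNAs 3 and 5 and control sgRNA 1 therefore stood well above the threshold of 5 UMIs, while 75.5% of the cells of ATF4 sgRNA 2 and 59.4% of those of CTNNB1 sgRNA 6 had only 5 to 9 UMIs. UMIs of a given member were found in 0.163 to 1.32% of the assigned cells of other sgRNAs, which had already passed the 80% rule. Of the 3705 cells with at least 5 UMIs of any member, 291 (7.85%) had at least 5 UMIs of a second member. Control sgRNAs and those against other genes are not counted there. Cells led by a member at 5 UMIs or more but under 80% numbered 90 for PGAM1, 337 for CTNNB1 and 161 for ATF4. Assigned cells numbered 333, 1552 and 859.

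The PGAM1 transcript was lower with each of the 4 PGAM1 sgRNAs than with any other tested sgRNA. Levels are given as CPM, the UMIs of a gene per 1000000 gene UMIs summed over the cells of an sgRNA, and 95% intervals on a single sgRNA are exact Poisson intervals that cover counting error only. PGAM1 stood at 102.1 CPM with PGAM1 sgRNA 1 (interval 76.0 to 134), 73.1 with sgRNA 2 (54.9 to 95.3), 65.5 with sgRNA 3 (52.9 to 80.2) and 53.2 with sgRNA 4 (42.6 to 65.7). The 4 controls stood at 212.9, 205.7, 204.3 and 209.0 CPM. The groups did not overlap, and the 30 tested sgRNAs that are not against PGAM1 ranged from 193 to 254 CPM. In such sums fewer cells with the transcript and less of it per cell cannot be told apart.

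Set against the controls, the PGAM1 transcript was 3.15-fold lower as a group (73.5 ± 20.7 against 208.0 ± 3.82 CPM, SD, n = 4 and 4 sgRNAs). The log2 difference was -1.66 ± 0.092 (SE; edgeR quasi-likelihood test, Benjamini-Hochberg adjusted p = 8.5e-24), in a comparison in which 0.389% of the 11570 tested genes were called. Each sgRNA was also compared with the controls on its own, with the spread taken from the controls and the sgRNAs of the 3 other targets, so that a lone sgRNA is assumed to vary like those. All 4 passed, each with a lower PGAM1 level, with log2 differences of -1.08, -1.51, -1.73 and -1.96 (edgeR adjusted p = 0.0026, 1.2e-06, 1.1e-10 and 2.9e-12). In those 4 comparisons 0.0691, 0.0864, 0.0519 and 0.0519% of genes were called in either direction, and 0.0432, 0.0864, 0.0432 and 0.0432% as lower. The call of sgRNA 1 was lost under a stricter sgRNA rule (10 UMIs and 90%; -1.04, edgeR adjusted p = 0.068) and with all sums thinned to 1 depth (-0.98, adjusted p = 0.088). The transcript that remained was 49.1% of the control mean with sgRNA 1 and 25.6% with sgRNA 4. With p adjusted over all genes, these ends of the set were not called apart from the mean of the other PGAM1 sgRNAs. The difference was 0.66 ± 0.22 for sgRNA 1 (edgeR adjusted p = 0.90, unadjusted p = 0.0053) and -0.52 ± 0.18 for sgRNA 4 (adjusted p = 0.96, unadjusted p = 0.0070).

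The CTNNB1 sgRNAs are described as a lower and a higher set of values, a split made after the values were seen. The CTNNB1 transcript stood at 22.3, 14.9 and 19.8 CPM with sgRNAs 2, 3 and 4, and at 33.1, 33.1 and 34.0 CPM with sgRNAs 1, 5 and 6, against 42.9, 54.5, 43.3 and 57.8 CPM with the controls. All 6 lay below all 4 controls. The mean was 26.2 ± 8.26 CPM (n = 6) against 49.6 ± 7.67 CPM (n = 4), a log2 difference of -0.90 ± 0.14 (edgeR adjusted p = 9.97e-05), and CTNNB1 was the 1 gene called of 11570 (0.00864%).

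Taken singly, sgRNAs 2, 3 and 4 passed and sgRNAs 1, 5 and 6 did not. The log2 differences of the first set were -1.10, -1.68 and -1.27 (edgeR adjusted p = 0.012, 5.8e-05 and 0.023), and in each of these comparisons CTNNB1 was the only gene called (0.00864%). Those of sgRNAs 1, 5 and 6 were -0.55 ± 0.20, -0.53 ± 0.16 and -0.48 ± 0.42 (edgeR adjusted p = 1.0, 1.0 and 0.96). Before adjustment over all genes their edgeR p-values were 0.010, 0.0025 and 0.26. The 32 cells of sgRNA 6 gave 14 CTNNB1 UMIs and an interval of 18.6 to 57.1 CPM, which reaches from the level of sgRNA 4 to that of the controls. The 492 cells of sgRNA 5 gave 213 UMIs and an interval of 28.8 to 37.9 CPM. It lay below the values of all 4 controls and above those of sgRNAs 2, 3 and 4, as did the interval of sgRNA 1, 26.7 to 40.7 CPM. The interval of sgRNA 1 overlapped that of sgRNA 2, 18.2 to 27.0 CPM. The difference of sgRNA 3 from the mean of the other 5, -0.89 ± 0.25, was not called over all genes (edgeR adjusted p = 1.0, unadjusted p = 0.00094). Nor were those of the other CTNNB1 sgRNAs, among which sgRNAs 5 and 1 had an unadjusted edgeR p of 0.010 and 0.044.

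CTNNB1 calls were the least firm of the 3 targets. At the level of the target the difference no longer passed with the stricter rule for sgRNAs (-0.76, adjusted p = 0.058 by edgeR), when cells above 10% mitochondrial UMIs were left out (-0.82, adjusted p = 0.26) and with edgeR's robust estimate of the spread (-0.90, adjusted p = 0.15). The mitochondrial limit left 95, 56, 63 and 32 of the 300, 164, 159 and 77 control cells, and the stricter rule 242, 66, 106 and 57. CTNNB1 sgRNA 6, with 12 and 13 cells left, dropped out of both fits. Without control sgRNA 2 the single calls of sgRNA 2 (-1.04, edgeR adjusted p = 0.090) and sgRNA 4 (-1.21, adjusted p = 0.11) were lost, and without control sgRNA 4 that of sgRNA 4 (-1.22, adjusted p = 0.051). The mitochondrial limit also ended the single calls of sgRNAs 3 (-1.29, edgeR adjusted p = 0.23) and 4 (-0.97, adjusted p = 1.0), the stricter rule those of sgRNAs 2 and 4 (-0.85 and -0.82), and thinned sums all 3 (-1.38, -1.38 and -1.80). Among sgRNAs against other genes CTNNB1 ranged from 33.9 CPM, with ATF4 sgRNA 1, to 65.0 CPM, and 5 of the 6 CTNNB1 sgRNAs lay below that whole range.

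The ATF4 sgRNAs lowered the ATF4 transcript least in fold terms. It stood at 266, 274, 247, 332, 258 and 186 CPM with sgRNAs 1 to 6, against 376, 372, 343 and 355 CPM with the controls. All 6 lay below all controls, although sgRNA 4 did so narrowly, at 91.9% of the control mean, while sgRNA 6 was at 51.5%. As a group the log2 difference was -0.51 ± 0.070 (260.5 ± 47.0 CPM, n = 6, against 361.5 ± 15.5 CPM, n = 4; edgeR adjusted p = 6.6e-07), in a comparison with 1.75% of genes called.

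Singly, sgRNAs 1, 3, 5 and 6 passed, with log2 differences of -0.49, -0.57, -0.51 and -0.99 (edgeR adjusted p = 0.026, 0.0094, 0.021 and 7.4e-08). In these comparisons 0.233, 0.121, 0.0951 and 0.0605% of genes were called. Those of sgRNA 2 (-0.43 ± 0.13, edgeR adjusted p = 0.48, unadjusted p = 0.0016, 0.0691% of genes called) and sgRNA 4 (-0.16 ± 0.093, adjusted p = 0.90, unadjusted p = 0.085, 0.0605% called) did not pass. Without control sgRNA 1 the calls of sgRNA 1 (-0.48, edgeR adjusted p = 0.068) and sgRNA 5 (-0.50, adjusted p = 0.0505) were lost, and without control sgRNA 2 that of sgRNA 1 (-0.49, adjusted p = 0.055). The mitochondrial limit and thinned sums each ended the calls of sgRNAs 1, 3 and 5 (log2 differences of -0.42 to -0.69), the stricter rule ended that of sgRNA 5 (-0.50, edgeR adjusted p = 0.14), and the call of sgRNA 6 held under every alternative run. With p adjusted over all genes, ATF4 sgRNA 6 was the 1 sgRNA of the 16 whose own target was called apart from the other sgRNAs of that target. ATF4 was lower by -0.55 ± 0.10 on the log2 scale against the mean of the other 5 (edgeR adjusted p = 0.041, with 0.00864% of genes called). The difference of sgRNA 4 in the other direction, 0.43 ± 0.092, was not called over all genes (edgeR adjusted p = 0.32; unadjusted p = 2.7e-05). Across the 28 tested sgRNAs not against ATF4 the transcript ranged from 329.7 to 412 CPM, so the value of sgRNA 4 lay inside that range and the other 5 lay below it.

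The share of cells with at least 1 UMI of the target showed the same separation. To keep depth from setting the share, each cell was thinned to 5000 gene UMIs, which left out 0 to 5 cells per sgRNA. A PGAM1 UMI was then found in 40.5% of the cells of PGAM1 sgRNA 1 (exact 95% binomial interval 24.8 to 57.9%), in 22.2, 21.5 and 21.8% for sgRNAs 2 to 4, and in 57.0 to 67.5% for the controls. The mean difference was -35.5 percentage points (exact two-sided permutation test over 4 and 4 sgRNAs, p = 0.0286, the smallest this design allows, and 0.0286 after adjustment over the 3 targets). A CTNNB1 UMI was found in 6.92 to 14.1% of the cells of the CTNNB1 sgRNAs and in 17.6 to 28.6% of those of the controls (-12.7 points, exact permutation p = 0.00952, adjusted p = 0.0143). An ATF4 UMI was found in 62.8 to 78.0% against 79.0 to 84.4% (-12.9 points, exact permutation p = 0.00952, adjusted p = 0.0143). In none of the 3 did target and control sgRNAs overlap. The ATF4 difference did not pass at 10000 UMIs per cell (-6.04 points, exact permutation adjusted p = 0.0857) or with the mitochondrial limit (-9.58 points, adjusted p = 0.105). Without thinning the shares were 36.3 to 56.8% against 83.0 to 88.7% for PGAM1, 17.2 to 32.9% against 39.0 to 54.5% for CTNNB1, and 84.4 to 96.9% against 96.0 to 100% for ATF4, where ATF4 sgRNA 4 lay above control sgRNA 1 and the other 5 lay below all controls. Control cells, which should express all 3 genes, still lacked a CTNNB1 UMI in many cells, so a cell without a UMI is not a cell without the transcript.

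More cells lacked a PGAM1 UMI than a Poisson count would give, with PGAM1 sgRNAs and, by less, with controls. The share of cells with no PGAM1 UMI was 43.2, 48.1, 51.4 and 63.7% for PGAM1 sgRNAs 1 to 4, where a Poisson count at the mean level of the sgRNA and the depth of each cell would give 27.1, 38.5, 43.2 and 54.0%. The excess was 8.17 to 16.1 percentage points, against 2.16 to 7.16 points for the controls, and this difference was not tested. At the other end, 2.96 to 8.11% of PGAM1 sgRNA cells held 4 or more PGAM1 UMIs, against 26.8 to 35.1% of control cells. For CTNNB1 the observed share with no UMI, 67.1 to 82.8% over the 6 sgRNAs, lay within 4.45 points of the Poisson value. The excess was -0.80 to 4.45 points, against -2.06 to 2.34 points for the controls. For ATF4 it was 3.12 to 15.6%, above the Poisson value in all 6 sgRNAs and by at most 5.13 points. The ATF4 excess was 0.46 points with sgRNA 4 and 3.03 to 5.13 points with the other sgRNAs. For the controls it was -2.10 to 1.80 points, and these differences were not tested.

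The level of the target showed no steady order over the number of sgRNA UMIs captured in a cell. Pooled over the 4 PGAM1 sgRNAs, PGAM1 stood at 61.4 CPM in cells with 1 to 2 UMIs of the sgRNA (Poisson interval 47.5 to 78.2), 69.4 at 3 to 4, 66.5 at 5 to 9, 55.4 at 10 to 19 and 83.7 at 20 or more (67.1 to 103). Control cells in the same classes stood at 237, 219.6, 201.0, 211 and 212 CPM. The interval of the cells with 1 to 2 UMIs, which the assignment rule leaves out, thus overlapped those of the assigned cells. Cells in which a PGAM1 sgRNA was the most abundant but held less than 80% of the sgRNA UMIs had 113.8 CPM (97.4 to 132), between the assigned cells and the controls. Those mixed cells were deeper, with a median of 16542.5 gene UMIs, and were placed with no sgRNA. CTNNB1 stood at 23.8 to 29.4 CPM in the 5 classes of CTNNB1 sgRNA cells and 42.8 to 58.2 CPM in those of control cells. ATF4 stood at 243 to 291 CPM against 353 to 379 CPM. Single sgRNAs could differ from this. ATF4 sgRNA 6 had its lowest value, 127 CPM (97.5 to 162), in cells with 20 or more UMIs. PGAM1 with PGAM1 sgRNA 4 went the other way, at 24.2 CPM (13.2 to 40.6) in 47 cells with 1 to 2 UMIs. It then stood at 39.9, 53.9 and 45.3 CPM, and at 68.5 CPM (42.4 to 104.7) in 25 cells with 20 or more. These orders were not tested.

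With ATF4 sgRNAs, genes of serine synthesis, amino acid import, tRNA charging and stress adaptation fell at the level of the target, but single sgRNAs did not follow the order of the ATF4 transcript. In all, 133 genes fell (1.15% of those tested) and 70 rose (0.605%). Of 5 lists of known ATF4 targets with 50 tested members, 22 fell and none rose, with a median log2 difference of -0.28, beside 0.0031 over all genes. Of the 50, 49 had negative values. With the mitochondrial limit 8 of the 45 members still tested fell (median -0.28), under the stricter rule 17 of 50, without control sgRNA 1 15 of 50 and without ATF4 sgRNA 3 16 of 50. The lists were chosen with earlier results of these data known, and their direction is therefore no independent evidence.

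In the serine and one-carbon list 5 of 6 tested members fell, with a median of -0.43: PSAT1, PHGDH, PSPH, SHMT2 and MTHFD2. PSAT1, the aminotransferase of serine synthesis, stood at 149.8, 167.0, 158, 172, 166.5 and 193.7 CPM with sgRNAs 1 to 6 and at 240.1 to 251 CPM with the controls (-0.56 ± 0.059, edgeR adjusted p = 1.5e-10). PHGDH, the first enzyme of that pathway, stood at 391, 420.0, 386, 433, 409 and 477 CPM against 545 to 594 CPM (-0.46 ± 0.057, adjusted p = 2.7e-08). In both genes all 6 sgRNAs lay below all 4 controls, and the highest of the 6 was sgRNA 6. MTHFD2, the mitochondrial enzyme of folate metabolism, stood at 136.6 to 165.4 CPM against 165.7 to 227 CPM (edgeR adjusted p = 4.99e-07), a gap of well under 1 CPM between the nearest values. SHMT2 and PSPH lost their calls with the mitochondrial limit (-0.44 and -0.17, edgeR adjusted p = 0.057 and 0.61), SHMT2 also under the stricter rule, and PSPH without control sgRNA 1, control sgRNA 3 or ATF4 sgRNA 3 (-0.22 to -0.24, adjusted p of 0.081 to 0.209).

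In the list of asparagine, cysteine and proline synthesis 2 of 6 fell (median -0.50). CTH, which makes cysteine from cystathionine, stood at 5.00 to 8.90 CPM against 16.4 to 18.9 CPM (-1.23 ± 0.22, edgeR adjusted p = 0.00015), and PCK2, the mitochondrial phosphoenolpyruvate carboxykinase, at 68.6 to 100.6 CPM against 108.8 to 140.2 CPM (-0.61, adjusted p = 1.7e-07). The asparagine synthetase ASNS was scarce, at 2.95 ± 0.96 against 5.75 ± 1.93 CPM, and did not pass (-0.76, adjusted p = 0.24). Of 8 transporters 3 fell (median -0.29): SLC1A5, a glutamine carrier, SLC7A5, a carrier of large neutral amino acids, and SLC3A2, its partner chain. SLC7A5 stood at 23.9 to 37.19 CPM with the ATF4 sgRNAs and 37.29 to 54.9 CPM with the controls (-0.49, edgeR adjusted p = 0.0089). With the mitochondrial limit none of the 3 passed (SLC1A5 -0.27, SLC7A5 -0.65 and SLC3A2 -0.26, edgeR adjusted p = 0.47, 0.10 and 0.21), under the stricter rule SLC1A5 alone did, and SLC7A5 also failed without control sgRNA 2 (-0.44, adjusted p = 0.064).

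Of 13 tRNA charging genes 7 fell (median -0.27): the synthetase genes GARS, SARS, EPRS, IARS, LARS and CARS and XPOT, the exporter of tRNA from the nucleus. GARS stood at 123, 119, 107, 149, 153 and 156 CPM against 144.5 to 202 CPM, with 3 of the 6 below all controls (-0.45 ± 0.070, edgeR adjusted p = 7.8e-06). None of the 7 passed with the mitochondrial limit, where their log2 differences were -0.19 to -0.40 and edgeR adjusted p was 0.106 to 0.618, and 5 of the 13 did under the stricter rule. Only 3 of the 13 passed without control sgRNA 1 or without ATF4 sgRNA 3, 4 without control sgRNA 2 and 5 without control sgRNA 3, while the list median stayed between -0.24 and -0.27 in those 4 fits. XPOT was also lost without ATF4 sgRNA 1 and LARS without ATF4 sgRNA 5. Of 17 stress effectors 5 fell (median -0.33): DDIT4, HERPUD1, NUPR1, CHAC1 and VEGFA. DDIT4, an inhibitor of mTORC1, stood at 47.9, 87.5, 69.6, 83.0, 67.7 and 94.9 CPM against 122 to 136.5 CPM (-0.81 ± 0.099, edgeR adjusted p = 2.0e-08). NUPR1, a small stress-induced nuclear protein, stood at 1.59 to 23.3 CPM against 29.2 to 59.7 CPM, without overlap (-1.29, adjusted p = 1.1e-05). PPP1R15A, the phosphatase subunit that reverses eIF2 phosphorylation, was the 1 list member with a positive value (0.35 ± 0.10), and it did not pass (edgeR adjusted p = 0.051, DESeq2 adjusted p = 0.032). VEGFA and CHAC1 lost their calls with the mitochondrial limit (-0.34 and -0.80), without control sgRNA 1 (-0.35 and -0.82) and without ATF4 sgRNA 4 (-0.44 and -0.71, edgeR adjusted p = 0.065 and 0.052), and VEGFA also under a looser sgRNA rule (3 UMIs and 60%; -0.35) and without control sgRNA 3 or ATF4 sgRNA 3 (both -0.44).

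By single sgRNA, the strength of the downstream change and the level of ATF4 itself did not run in parallel. ATF4 sgRNA 6, with the lowest ATF4 transcript, had 7 genes called against the controls, no list member among them, and a list median of -0.28. ATF4 sgRNA 4, with the highest ATF4 transcript, also had 7 genes called, 5 of them list members (PSAT1, CHAC1, HERPUD1, DDIT4 and PCK2), and a list median of -0.32. ATF4 sgRNA 1 had the most, 27 genes with 6 list members (DDIT4, PSAT1, PCK2, PHGDH, GARS and the cystine carrier SLC7A11) and a list median of -0.49. The counts of sgRNAs 2, 3 and 5 were 8, 14 and 11, with 0, 4 and 4 list members and list medians of -0.30, -0.43 and -0.29. The same median for the controls, each against the other 3, was 0.060, -0.029, 0.014 and -0.16.

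Gene by gene the pattern was similar. Of the 22 list members that fell, 12 had their highest level of the 6 with sgRNA 6 (PHGDH, PSAT1, MTHFD2, PCK2, SLC3A2, GARS, SARS, EPRS, IARS, CARS, DDIT4 and NUPR1) and none had its lowest there. In 10 of the 22 the lowest level was with sgRNA 3 and in 7 with sgRNA 1. These ranks are a description: against the mean of the other ATF4 sgRNAs no list member was called for any of the 6, where 465 to 517 genes had an unadjusted p under 0.05. The sgRNA with the most genes called, sgRNA 1, had 97 cells and sgRNA 4 had 256. The part of depth in these counts was not tested. When all sums were thinned to a common total of 411333 UMIs, the depth of the shallowest member, the counts were 8, 3, 2, 0, 1 and 1.

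S100P and CAMP, which are on none of these lists, were called with more single ATF4 sgRNAs than any other gene. S100P, a calcium-binding protein, fell with 6 of 6, at 377, 379, 463, 459, 442 and 492 CPM against 671 to 692 CPM. CAMP, which encodes the antimicrobial peptide cathelicidin, fell with 5 of 6, at 1.48 to 6.11 CPM against 15.4 to 22.4 CPM (group log2 difference -2.21 ± 0.23, edgeR adjusted p = 7.8e-11). HSPA8, a constitutive heat shock chaperone, fell with sgRNAs 1, 3 and 5 and stood at 223 to 286 CPM against 340.0 to 373 CPM. Among genes that rose, ZFAS1, a small nucleolar RNA host gene, stood at 1775, 2063, 1744, 1494, 1676 and 1510 CPM against 1168 to 1354 CPM (0.38 ± 0.055, edgeR adjusted p = 1.8e-06) and passed singly with sgRNAs 1, 2 and 3. TNFRSF12A, the receptor of the cytokine TWEAK, stood at 413 to 523 CPM against 291 to 345 CPM (adjusted p = 9.2e-06). CMC2, KRT10, PGP and AC010327.4 came next by p among those that rose, each with all 6 sgRNAs above all controls. CMC2 and PGP lost their calls with the mitochondrial limit (0.47 and 0.36, edgeR adjusted p = 0.071 and 0.165), and KRT10 and AC010327.4 under the stricter rule (0.24 and 0.84, adjusted p = 0.059 and 0.083).

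The letters TGATGNAA, the core of the composite site that ATF4 shares with C/EBP factors, were searched on both strands of the RefSeq promoter windows (GRCh38.p14, 250 bases before to 50 after the start site). They were in 1270 of 35116 windows (3.62%) and in 245 of the 9394 tested genes with a window (2.61%). Among the 41 list members with a window they were in 18 (43.9%), among the 17 of these that fell in 7 (41.2%). A match is a description, and a window without one says only that these letters are not in it. The 3 stretches below are those of list members that fell, with the smallest p, whose match lies before the start site, shown with the match in capitals so that its strand and setting can be seen. They are GARS (chr7:30594628-30594877, plus strand), HERPUD1 (chr16:56931892-56932141, plus strand) and SLC1A5 (chr19:46784815-46785064, minus strand), each 5' to 3' along the gene.
GARS: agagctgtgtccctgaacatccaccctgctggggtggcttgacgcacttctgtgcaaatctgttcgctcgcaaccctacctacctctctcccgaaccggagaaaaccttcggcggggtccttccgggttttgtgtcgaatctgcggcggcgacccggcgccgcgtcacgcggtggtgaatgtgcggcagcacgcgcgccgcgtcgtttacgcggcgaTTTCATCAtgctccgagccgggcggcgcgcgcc
HERPUD1: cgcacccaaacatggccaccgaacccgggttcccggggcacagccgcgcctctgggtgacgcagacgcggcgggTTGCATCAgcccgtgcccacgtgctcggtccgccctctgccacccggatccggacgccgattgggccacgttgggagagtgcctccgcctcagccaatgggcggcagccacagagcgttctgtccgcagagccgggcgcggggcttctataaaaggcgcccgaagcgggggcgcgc
SLC1A5: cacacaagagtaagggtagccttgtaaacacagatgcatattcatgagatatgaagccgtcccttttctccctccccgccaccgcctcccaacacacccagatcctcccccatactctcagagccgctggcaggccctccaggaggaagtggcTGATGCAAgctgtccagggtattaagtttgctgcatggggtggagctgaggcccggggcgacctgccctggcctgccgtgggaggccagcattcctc
The match begins 33 bases before the start site in GARS, 176 in HERPUD1 and 97 in SLC1A5. HERPUD1, which helps to clear proteins from the endoplasmic reticulum, stood at 44.5 to 68.3 CPM with the ATF4 sgRNAs against 78.6 to 105 CPM (-0.62, edgeR adjusted p = 9.2e-06), and SLC1A5 at 60.5 to 81.1 CPM against 89.4 to 95.3 CPM (-0.48, adjusted p = 8.0e-05). PSAT1, PHGDH and DDIT4 had no match in their windows.

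With PGAM1 sgRNAs, 35 genes fell (0.303%) and 10 rose (0.0864%), and keratin, immediate early, aldo-keto reductase and mitochondrially encoded genes were among those that fell. KRT19, a keratin of simple epithelia, was the 1 gene besides PGAM1 that every PGAM1 sgRNA changed singly, at 1533, 1601, 1560.3 and 1567 CPM against 2165 to 2550 CPM (group log2 difference -0.57 ± 0.054, edgeR adjusted p = 1.6e-12). The 4 values lay close together, while PGAM1 itself differed 1.92-fold between sgRNAs 1 and 4. Of 6 keratins 3 fell, KRT19, KRT8 and KRT18, with a list median of -0.36.

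FOS, an immediate early subunit of the AP-1 factor, stood at 38.0, 23.0, 29.6 and 30.3 CPM against 69.6 to 113.7 CPM (-1.78 ± 0.16, edgeR adjusted p = 5.5e-13), and passed singly with sgRNAs 2, 3 and 4. Of 17 tested immediate early genes 4 fell (FOS, FOSB, EGR1 and KLF6; median -0.19). FOSB stood at 10.0 to 13.4 CPM against 28.2 to 35.8 CPM, and EGR1 at 6.00 to 17.6 CPM against 15.9 to 35.6 CPM, where 1 sgRNA overlapped the controls. FOS kept its call under every alternative run, while KLF6, EGR1 and FOSB lost theirs with the mitochondrial limit (-0.67, -0.81 and -0.88, edgeR adjusted p = 0.41, 0.36 and 0.27). EGR1 was also lost under the stricter rule (-1.03) and without PGAM1 sgRNA 4 (-0.99, adjusted p = 0.101), and KLF6 under the stricter rule and without any 1 of control sgRNAs 1 to 3 or PGAM1 sgRNAs 2 to 4 (-0.66 to -0.74). Of 6 aldo-keto reductases, enzymes that reduce carbonyl compounds, 4 fell (AKR1B10, AKR1C1, AKR1C2 and AKR1C3; median -0.30). AKR1B10 stood at 170.1, 208, 222.5 and 207 CPM against 299 to 362 CPM (-0.72 ± 0.081, adjusted p = 1.0e-09), and sequence shared among the AKR1C genes could move reads between them. AKR1C2 and AKR1C3 lost their calls with the mitochondrial limit (-0.40 and -0.21, edgeR adjusted p = 0.11 and 0.44), without control sgRNA 1 (-0.26 and -0.24) and without PGAM1 sgRNA 3 (-0.31 and -0.24). AKR1C3 was also lost under the stricter rule (-0.22), without control sgRNA 2 or 4 (both -0.24) and without PGAM1 sgRNA 1 (-0.19).

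No member of the glycolysis list besides PGAM1 itself, which was kept out of it, passed with PGAM1 sgRNAs. Of 17 genes 0 were called by edgeR, 3 had an unadjusted p under 0.05 (GAPDH, GPI and PGK1), and DESeq2 called GAPDH. The log2 difference was negative in 14 of the 17, with a median of -0.094 beside 0.0060 over all genes. With single sgRNAs 1 to 4 the list median was -0.19, -0.026, -0.16 and -0.049. For the controls, each against the others, it was -0.058 to 0.077. By edgeR 1 member passed without a filter on low counts, with the robust spread, the stricter or looser rule or the mitochondrial limit, and without control sgRNA 2, PGAM1 sgRNA 2 or PGAM1 sgRNA 4. GAPDH stood at 5999 ± 391 against 6658 ± 186.5 CPM (-0.18 ± 0.045, edgeR adjusted p = 0.051). ENO1, the enolase that acts next after PGAM1, stood at 458 ± 25.7 against 451 ± 47.1 CPM (-0.021, 95% interval -0.15 to 0.11). LDHB, at the end of the pathway, stood at 620.4 to 729 against 652 to 693 CPM (-0.015, interval -0.12 to 0.087). The other phosphoglycerate mutases tested, PGAM5 (8.35 ± 1.74 against 6.67 ± 1.95 CPM) and BPGM (12.6 ± 2.70 against 14.4 ± 3.14 CPM), did not pass either.

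Of the 13 mitochondrially encoded genes 5 fell with PGAM1 sgRNAs (MT-CYB, MT-CO2, MT-ND5, MT-CO1 and MT-ATP6; median -0.19), and 1 sgRNA stood apart. None of the 5 passed with the mitochondrial limit, which acts on these genes directly (list median -0.05). MT-CO1 was also lost under the stricter rule and without control sgRNA 1 (-0.18, edgeR adjusted p = 0.057), and MT-ATP6 in 10 of 16 alternatives, among them without any 1 of control sgRNAs 1 to 3 and PGAM1 sgRNAs 2 and 3 (-0.14 to -0.19). PGAM1 sgRNA 2 had a median of -0.33 over the list, with 5 genes called singly (MT-ND5, MT-CYB, MT-ND1, MT-ND2 and MT-CO2), while sgRNAs 1, 3 and 4 had -0.16, -0.13 and -0.15 and none called. MT-CYB, cytochrome b, stood at 9795, 8384, 9874 and 9667 CPM against 11052 to 12183 CPM. The median mitochondrial share of its cells was 8.52% with sgRNA 2, 9.86 to 10.1% with the other 3 and 10.7 to 11.4% with the controls, so all 4 lay below all controls (exact permutation p = 0.0286, the smallest possible, and 0.171 after adjustment over 12 such tests). Summed G2/M genes stood at 1522 to 2603 CPM with the PGAM1 sgRNAs and 1360 to 1839 CPM with the controls (exact permutation p = 0.29, adjusted p = 0.41). Of the 24 genes 0 were called, 0 had a negative log2 difference and 13 had an unadjusted edgeR p under 0.05 (median 0.32). The part of G2/M genes in these results was not tested.

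Genes that rose with PGAM1 sgRNAs were led by ANXA3, a membrane-binding annexin (98.1 to 130.3 CPM against 60.7 to 84.0 CPM, edgeR adjusted p = 0.00047), and MT2A, a metallothionein (742 to 1130 CPM against 610.3 to 674 CPM, adjusted p = 0.0026). CFAP20, LMO4 and STMN1 also rose, each with every PGAM1 sgRNA above every control. MT2A passed singly only with sgRNA 4, at 1130 CPM, and without that sgRNA its group call was lost (0.28, edgeR adjusted p = 0.26), as it was with the robust spread and the mitochondrial limit. CFAP20, LMO4 and STMN1 lost theirs under the stricter rule and the mitochondrial limit, and STMN1 also with the looser rule and the robust spread. With 1 sgRNA left out, CFAP20 was lost without control sgRNA 1 or PGAM1 sgRNA 2 or 4 (0.48 to 0.56), LMO4 without control sgRNA 2 or PGAM1 sgRNA 2 or 3 (0.48 to 0.54), and STMN1 without control sgRNA 1 or 3 or PGAM1 sgRNA 1 or 3 (0.35 to 0.38). Aldo-keto reductases and keratins also fell with the ATF4 sgRNAs, 3 of 6 (AKR1C1, AKR1C3 and AKR1B10) and 2 of 6 (KRT19 and KRT8), in a comparison that uses the same controls.

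With CTNNB1 sgRNAs no gene but CTNNB1 was called at the level of the target, where 498 genes had an unadjusted p under 0.05 and DESeq2 also called 1 gene. Of 19 Wnt target genes only 9 passed the filter on low counts, and none was called by edgeR or DESeq2 or had an unadjusted p under 0.05 (median log2 difference -0.0088, beside 0.00025 over all genes). CCND1, cyclin D1, stood at 348 ± 20.7 against 365 ± 14.7 CPM, with a 95% interval of -0.15 to 0.056 on the log2 difference, and CD44 at 209.9 ± 10.3 against 208.0 ± 4.40 CPM (interval -0.14 to 0.12). For scarce targets the intervals were wide, as for RNF43 at 2.49 ± 2.40 against 2.95 ± 1.93 CPM (-1.30 to 0.32).

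The partners of beta-catenin gave the same picture. Of 8 other genes of catenins and adherens junctions 0 were called by edgeR or DESeq2 and 1, VCL, had an unadjusted p under 0.05 (median -0.039). JUP, or gamma-catenin, the closest relative of beta-catenin, stood at 45.6 ± 4.07 against 48.8 ± 3.42 CPM (interval -0.24 to 0.097), and CDH1, E-cadherin, at 54.4 ± 10.7 against 53.9 ± 11.6 CPM. Of 9 genes of the destruction complex and TCF factors 0 were called by either tool and 1, GSK3A, had an unadjusted p under 0.05 (median 0.044). Singly, sgRNAs 1, 5 and 6 had 0 genes called by edgeR, with 443, 255 and 523 genes at an unadjusted p under 0.05. CTNNB1 sgRNA 5, with 6430143 UMIs, was the deepest of the 16 sums and sgRNA 6, with 411333, the shallowest.

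Interferon-induced genes had negative values with CTNNB1 sgRNAs without any being called. Of 18 tested, 0 passed by edgeR or DESeq2, 9 had an unadjusted p under 0.05 and 17 had a negative log2 difference (median -0.24). The closest to the threshold was IFI27, at 128 ± 16.3 against 198 ± 60.9 CPM (-0.53, edgeR adjusted p = 0.079). Among the controls, sgRNA 4 had a median of 0.35 over the list against the other 3, which had -0.095 to -0.12 in the same comparison. Without control sgRNA 4 the list median with CTNNB1 sgRNAs was -0.17 and 0 of 18 passed, and with the mitochondrial limit it was -0.39 and 0 of 17 passed. By edgeR 1 member passed without control sgRNA 1, 2 when target and control sgRNAs were fitted alone and 3 without a filter on low counts.

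Within a target, few genes separated the sgRNAs. Of the 16 comparisons of an sgRNA with the others of its target, 13 called no gene by edgeR, with 349 to 609 genes at an unadjusted p under 0.05. ATF4 sgRNA 6 differed in ATF4 alone, as given above. PGAM1 sgRNA 1 differed in IFIT2, an interferon-induced gene, at 114 CPM against 12.4 to 13.5 CPM with the other 3 (edgeR adjusted p = 2.2e-05; 0.00864% of genes called). Its 57 IFIT2 UMIs came from 6 of 37 cells, with 27 in 1 cell, and without that cell the level was 61.5 CPM. ATF4 sgRNA 3 differed in OASL and IFIT2 (0.0173% of genes called), at 38.4 and 39.7 CPM, but 76.3% and 82.0% of those UMIs came from 1 cell. Without that cell in each the levels were 9.23 and 7.25 CPM, inside the ranges of the other ATF4 sgRNAs, 3.33 to 36.6 and 4.43 to 23.9 CPM.

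The controls gave a measure of what an sgRNA without a target does. Each control against the other 3 had 0, 0, 0 and 1 gene called by edgeR (0.00864% for the last), with 276, 321, 368 and 715 genes at an unadjusted p under 0.05. The 1 gene was SAA1, a serum amyloid of the acute phase, at 113.7 CPM with control sgRNA 4 against 24.6 to 26.0 CPM (edgeR adjusted p = 0.0025). At full depth the single PGAM1 sgRNAs, with 6 to 10 genes called, and the single ATF4 sgRNAs, with 7 to 27, lay above this, and the single CTNNB1 sgRNAs, with 0 or 1, did not. Without the target itself these counts were 5 to 9, 6 to 26 and 0. With sums thinned to 411333 UMIs they were 4, 10, 3 and 4 for PGAM1 sgRNAs and 8, 3, 2, 0, 1 and 1 for ATF4 sgRNAs. The controls were not compared at that depth, so the order there is not known. Member and control comparisons differ in the number of sgRNAs on the reference side, 4 and 3.

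Genes beside the targets were checked, since sgRNAs bound near a start site can touch a neighbour. Of the 3 nearest tested genes on each side of each target, 18 in all, 0 passed by edgeR or DESeq2. In all, 2 had an unadjusted edgeR p under 0.05: RPS19BP1 and TNRC6B, which lie 6407 and 522148 bases from ATF4. EXOSC1, a subunit of the RNA exosome 2465 bases from PGAM1, stood at 98.1, 51.4, 82.4 and 61.9 CPM against 62.3 to 78.0 CPM (log2 difference 0.067, 95% interval -0.17 to 0.31). MIEF1, 2427 bases from ATF4, stood at 30.5 ± 3.74 against 30.6 ± 3.50 CPM (interval -0.26 to 0.22). RPS19BP1, 6407 bases from ATF4, stood at 198 ± 22.3 against 174 ± 7.53 CPM (0.17, edgeR adjusted p = 0.20), and it passed in the fit without ATF4 sgRNA 3 (0.22, adjusted p = 0.049). The nearest tested gene to CTNNB1, ZNF621, lies 659723 bases away, so this check says little there. Compared singly, none of the 96 pairs of a neighbour and an sgRNA was called.

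The summed counts behind each sgRNA ranged from 411333 UMIs (CTNNB1 sgRNA 6) to 6430143 UMIs, and those of the controls from 1038200 to 3869915. The defining markers of PC9 as an epithelial line, EPCAM, CDH1, EGFR and keratins 7, 8, 18 and 19, were all present, at 9166 to 12579 CPM summed in each sgRNA, and 12 markers of blood, vessel and connective tissue cells summed to 1.35 to 7.29 CPM, with 4 at 0 in the members.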

How the data were processed

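The deposited matrix holds UMI counts per gene or sgRNA and cell barcode, which the authors produced on hg38 (per the submitters' processing notes) using Cell Ranger 6.1.2 (per the file headers). No label or header describes filtering or doublet removal before deposit, and no doublet caller was run. Of 10847 barcodes, 10142 with at least 1000 gene UMIs, 500 genes and at most 20% mitochondrial UMIs were kept. Counts of 5530 cells were summed for each of the 34 sgRNAs with at least 20 assigned cells, and 11570 genes passed edgeR's filterByExpr. edgeR 4.0.16 (R 4.3.3, TMM scaling, quasi-likelihood test) was fitted with 1 coefficient per target, and again with 1 per member sgRNA, where controls and sgRNAs of the remaining targets give the spread. Genes were called at an adjusted p under 0.05 (Benjamini-Hochberg over all genes tested), and 95% intervals of log2 differences use the normal distribution. Shares of cells were compared by exact permutation (scipy 1.17.1). DESeq2 1.42.0 and other scalings, filters and sgRNA rules were alternatives. The fits were tested on simulated data.

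Members and gene lists were chosen with earlier results of these data known. Named genes were the target, its 3 nearest tested genes on each side, its called list members, the 6 genes with the smallest p in each direction at 10 CPM or more, and up to 3 per direction that separated an sgRNA from the others of its target. Other list members, and genes such as AKR1C2, were named with their values seen.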

Additional observations from a re-analysis of the deposited data

Results flagged for a closer look

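Among 130 sets of 4 or 6 sgRNA values, 12 held 1 value far from the rest of its set by Dixon's test, where chance alone marks about 1 set in 20. For PGAM1 sgRNA 1, 40.5% of thinned cells held a PGAM1 UMI (the nearest of the other 3 was at 22.2%), KLF6 stood at 32.0 CPM (nearest 22.5), AKR1C3 at 558 CPM (nearest 682) and IFIT2 at 114 CPM (nearest 13.5). PGAM1 sgRNA 2 had a median mitochondrial share of 8.52% (nearest 9.86%), MT-CYB at 8384 CPM (nearest 9667) and a median log2 difference of -0.33 over the mitochondrially encoded list (nearest -0.16), which are 3 views of the same transcripts. These sgRNAs have the fewest cells of the PGAM1 set, 37 and 54. CTNNB1 sgRNA 1 had a median of 13344 gene UMIs per cell (nearest 12771) and SEC22C, a gene of vesicle transport, at 29.5 CPM (nearest 21.9). CTNNB1 sgRNA 6, with 32 cells, had ZNF619, a zinc finger gene, at 7.29 CPM (nearest 2.60) and TRAK1, a mitochondrial transport adaptor, at 14.6 CPM (nearest 21.7). ATF4 sgRNA 3 had RPS19BP1 at 155 CPM (nearest 199).

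In 4 cases a test of 1 sgRNA against the others of its target called a gene. IFIT2 was higher with PGAM1 sgRNA 1 by 3.11 on the log2 scale (edgeR adjusted p = 2.2e-05), and OASL and IFIT2 were higher with ATF4 sgRNA 3 by 2.29 (edgeR adjusted p = 0.00042) and 2.04 (adjusted p = 0.0080). ATF4 with ATF4 sgRNA 6 differed by -0.55 (edgeR adjusted p = 0.041). The IFIT2 call of ATF4 sgRNA 3 was lost with the robust spread (edgeR adjusted p = 0.45), and the other 3 were kept (adjusted p = 0.020 for IFIT2 in PGAM1 sgRNA 1, 0.00011 for OASL and 0.0096 for ATF4).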

How the results depend on the processing

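The PGAM1 and ATF4 transcripts kept their direction and their call under every alternative run, with log2 differences of -1.77 to -1.51 and -0.63 to -0.41 when 1 sgRNA was left out. The CTNNB1 transcript kept its call when 1 sgRNA was left out (-1.09 to -0.78) and lost it at -0.82 with at most 10% mitochondrial UMIs, -0.76 under the stricter sgRNA rule and -0.90 with the robust spread, which was chosen after seeing the data. Counts of genes called by edgeR for PGAM1, CTNNB1 and ATF4 sgRNAs were 45, 1 and 203. They were 21, 0 and 64 with at most 10% mitochondrial UMIs, 26, 2 and 94 under the stricter rule, and 76, 6 and 308 when target and control sgRNAs were fitted alone. Without a filter on low counts they were 91, 5 and 232, with the robust spread 39, 0 and 219, and with DESeq2 58, 1 and 198. With 1 sgRNA left out they were 19 to 36, 1 to 2 and 133 to 234. The lowest PGAM1 and ATF4 counts came without control sgRNA 1 (19 and 133, with 2 for CTNNB1), and PGAM1 had 21 without PGAM1 sgRNA 3 and 28 without control sgRNA 3. The PGAM1 share of cells differed by -40.2 to -33.7 points with 1 sgRNA left out, where the smallest exact p is 0.0571. The ATF4 share differed by -6.04 points at 10000 UMIs and -9.58 points with the mitochondrial limit, both short of the threshold. The cause of these changes was not tested, beyond the smaller number of cells that stricter limits leave. Among single sgRNAs, 22 of 156 alternative values of the own transcript lost the call and 49 of 156 counts moved by over 1.5 times. No paired analysis was possible because sgRNA numbers name different sequences and pair nothing across targets. With 14 CTNNB1 UMIs in 411333, CTNNB1 was not called lower with CTNNB1 sgRNA 6 (log2 difference -0.48 ± 0.42, SE). The smallest difference detectable at this depth was not computed.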
